A study of Mus musculus with 16 samples.

Results

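Keratins, the subunits of the intermediate filaments of epithelial cells, were followed on 16 arrays from subcutaneous tumors of PDA30364, a mouse pancreatic ductal adenocarcinoma cell line. All genes whose symbol is Krt followed by a number were taken, which gave 48 keratin genes among the 18193 genes represented on the array. They comprised 4 ductal keratins (Krt7, Krt8, Krt18 and Krt19), 18 epidermal keratins, 19 hair keratins, 6 other keratins and Krt88, which was put in no class. Of the 48 keratins, 9 were measured by more than 1 probe set, and the brightest on average was used for them. Values are log2 intensities, on which a difference of 1 is a doubling, and each probe set has its own brightness, so that the level of one gene is not set against that of another, and the median of all probe sets serves only to place a value on the scale of the array.

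PDA30364 was derived from a genetically engineered mouse in which Elas-tTA/TetO-Cre acts in the pancreas, with caerulein pancreatitis. As 1 cell line it stands for 1 tumor of origin. These cells were placed, in PBS and Matrigel, under the skin of the flank of C57BL/6-Ly5.1 mice aged 6 to 12 weeks. The 4 groups of 4 arrays each were Vehicle + control IgG (control), Vehicle + CD40 mIgG1 (anti-CD40 Ab), GEM + control IgG (GEM) and GEM + CD40 mIgG1 (GEM/anti-CD40 Ab). GEM, gemcitabine, is a nucleoside analog, dosed at 120 mg/kg on days 1, 5 and 12 of treatment. The agonist antibody against CD40, an activating receptor of antigen-presenting cells, or its isotype followed on days 3, 4, 6 and 14, and tumors were taken on day 22 or 23 after inoculation. RNA came from whole tumor, so fewer cells of a type and less RNA per cell cannot be told apart, and tissue around the tumor is not separated from it. GEM replicates 3 and 4 share a tumor number in their titles, whereas the other 14 arrays each have their own. Both arrays were kept and are counted as separate tumors below, but the GEM group may hold only 3 tumors, and its SDs, its tests and the correlations across tumors then count 1 tumor more than once.

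Keratin filaments are built from pairs of an acidic type I and a basic type II keratin, and the pair used tells one epithelium from another. Simple epithelia such as pancreatic ducts use the type II keratins Krt7 and Krt8 with the type I keratins Krt18 and Krt19. The basal layer of the epidermis uses Krt5 with Krt14, its upper layers Krt1 with Krt10, and wounded or hyperproliferative epidermis and parts of the hair follicle Krt6a and Krt6b with Krt16 and Krt17. The hair follicle has keratins of its own, among them Krt25 to Krt28 with Krt71 to Krt73 in the inner root sheath and a further set in the hair shaft. In mouse the type I genes lie together on chromosome 11 and the type II genes on chromosome 15, with Krt18 beside Krt8 on chromosome 15. Of the 48 keratins, 24 lie on each of these chromosomes.

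4 tumors stood apart in their keratins. Control replicate 2, anti-CD40 Ab replicate 2 and GEM replicate 4 held high levels of epidermal or hair keratins, and anti-CD40 Ab replicate 3 held the lowest levels of the ductal keratins. All were kept.

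The 4 ductal keratins gave a strong signal in every tumor, and no change with treatment was detected. The mean of the 4 ductal keratins was between 13.12 and 13.30 in 15 of the 16 tumors and 12.81 in anti-CD40 Ab replicate 3. These values lie close to the highest intensity on an array, which was between 14.37 and 14.47, and changes near the top of an array's scale can be compressed.

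Krt7, the type II keratin of glandular ducts, measured 12.57, 12.53, 12.56 and 12.45 in control replicates 1 to 4 and 12.66, 12.63, 11.80 and 12.51 in the anti-CD40 Ab group. GEM tumors had 12.69, 12.58, 12.50 and 12.58, and GEM/anti-CD40 Ab tumors 12.54, 12.44, 12.75 and 12.71. The 4 groups overlapped, and the single low value belonged to anti-CD40 Ab replicate 3. Against control, the anti-CD40 Ab group differed by a log2 change of -0.13 (95% confidence interval -0.52 to 0.26), the GEM group by 0.06 (-0.08 to 0.20) and the combination group by 0.08 (-0.10 to 0.27).

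Krt19, a type I keratin of ducts and a common marker of ductal tumor cells, measured 13.03, 13.14, 13.24 and 13.22 in control tumors and 13.13, 13.29, 12.66 and 13.02 in the anti-CD40 Ab group. GEM tumors had 13.22, 13.07, 13.11 and 13.32, and GEM/anti-CD40 Ab tumors 12.98, 12.99, 13.20 and 13.04. Anti-CD40 Ab replicate 3 was again the lowest of the 16 tumors. The log2 change of Krt19 was -0.13 (95% confidence interval -0.42 to 0.15), 0.02 (-0.15 to 0.20) and -0.11 (-0.28 to 0.07) for the same 3 treatments.

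Krt8 and Krt18, the pair that builds the filaments of all simple epithelia, varied least. Krt8 lay between 13.52 and 13.77 over the 16 arrays and Krt18 between 13.25 and 13.49, and anti-CD40 Ab replicate 3 held the lowest value of both. Of all probe sets, 4.19% had a range over the 16 arrays no larger than that of Krt8 and 3.40% than that of Krt18, against 74.8% for Krt19 and 88.3% for Krt7. Among the 734 probe sets with a mean of at least 12, these shares were 54.4% for Krt8 and 50.4% for Krt18. The flat profile of this pair was therefore ordinary for probe sets of their brightness, while for Krt19 and Krt7 the shares were 92.6% and 96.9%. Against control, the log2 change of Krt8 was -0.04 (95% confidence interval -0.20 to 0.12), -0.03 (-0.15 to 0.10) and -0.05 (-0.18 to 0.08), again in the order of antibody, GEM and combination, and that of Krt18 was 0.00 (-0.15 to 0.15), -0.03 (-0.16 to 0.10) and 0.04 (-0.08 to 0.17).

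**Figure D1:**
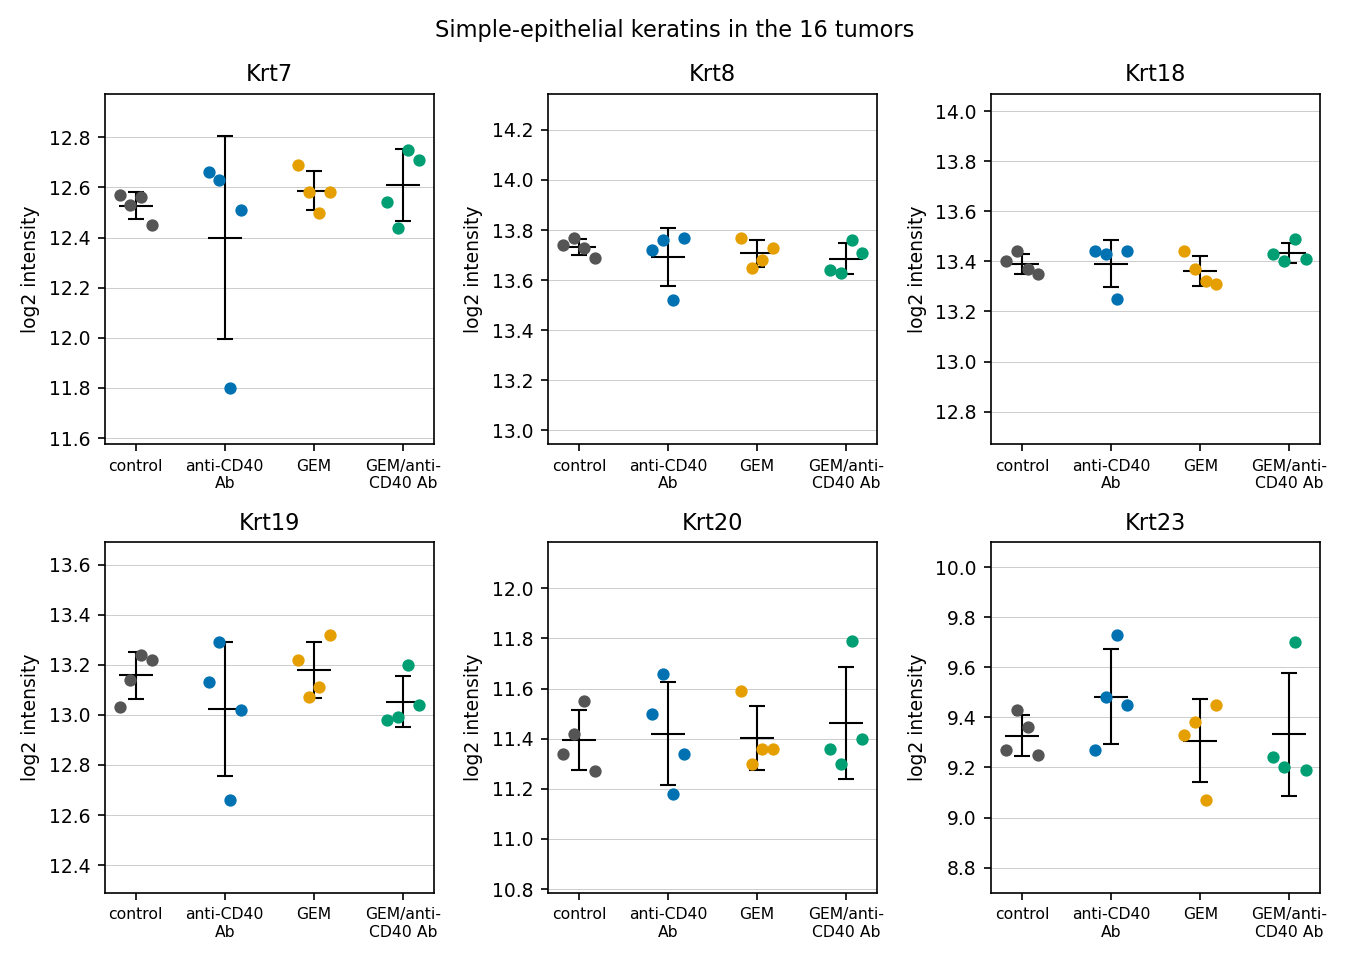
Log2 intensity of the ductal keratins Krt7, Krt8, Krt18 and Krt19 and of Krt20 and Krt23 in single tumors, by treatment group. Points are tumors in replicate order, horizontal marks are group means and whiskers are SDs (n = 4), and the axes of the 6 panels span the same number of log2 units. Krt7 stood at 11.80 in anti-CD40 Ab replicate 3 and at 12.44 to 12.75 in the other tumors.

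Anti-CD40 Ab replicate 3 was also the lowest in the means of other ductal genes and of desmosome and plakin genes, but not of hemidesmosome genes. The mean of 19 ductal epithelium genes was 9.32 in this tumor and 9.73 to 10.36 in the others. The mean of 13 desmosome and plakin genes, which anchor keratin filaments at cell contacts, was 8.12 there and 8.41 to 9.29 elsewhere. For 6 hemidesmosome genes the mean was 8.54 there, within the 8.41 to 9.17 of the other tumors. The part of tumor cell content in its keratin values was not tested.

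Across the 16 tumors all pairs of ductal keratins except Krt18 and Krt19 had an adjusted p under 0.05 by Pearson's r, but none by Spearman's rho. The relation rested on anti-CD40 Ab replicate 3. Pearson's r was 0.792 for Krt7 and Krt8, 0.731 for Krt7 and Krt18, 0.752 for Krt7 and Krt19, 0.671 for Krt8 and Krt18, 0.768 for Krt8 and Krt19 and 0.349 for Krt18 and Krt19. In permutation tests over the 6 pairs (two-sided, 100000 resamples, Benjamini-Hochberg adjustment), the adjusted p was 0.00448, 0.00448, 0.0114, 0.00813, 0.00448 and 0.183 in the same order, with unadjusted p = 0.00224, 0.00145, 0.00953, 0.00542, 0.00174 and 0.183. Spearman's rho was 0.469, 0.528, 0.445, 0.644, 0.522 and 0.042, with unadjusted permutation p = 0.0675, 0.0372, 0.0852, 0.00846, 0.0402 and 0.875 and adjusted p of 0.101, 0.0805, 0.102, 0.0508, 0.0805 and 0.875. With group means removed, r was 0.894, 0.841, 0.808, 0.842, 0.780 and 0.577. Without the 2 arrays farthest from the median of the first gene of each pair, of which anti-CD40 Ab replicate 3 was always 1, r was 0.412, 0.355, 0.227, 0.465, 0.398 and 0.037. None of the 6 pairs passed without anti-CD40 Ab replicate 3 alone, where r was 0.469, 0.513, 0.277, 0.412, 0.500 and -0.211 (permutation tests, adjusted p = 0.158, 0.158, 0.377, 0.190, 0.158 and 0.448).

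Among the other keratins, Krt20 and Krt23, both keratins of gastrointestinal epithelia, were well expressed in every tumor. Krt20 had a mean of 11.42 over the 16 arrays, with values of 11.18 to 11.79, and Krt23 a mean of 9.36, with values of 9.07 to 9.73. Group means of Krt20 were 11.40 ± 0.12 (control), 11.42 ± 0.21 (anti-CD40 Ab), 11.40 ± 0.13 (GEM) and 11.46 ± 0.22 (combination; SD, n = 4). Anti-CD40 Ab replicate 3, lowest for Krt20 like the ductal keratins, was the highest of the 16 for Krt23. The 2 probe sets of Krt42 disagreed in brightness. The brighter, of a kind that can bind related transcripts (_x_at), had a mean of 10.17 and the other one of 4.71, so the level of Krt42 is uncertain. Krt12, Krt24 and Krt222 lay below the median of all probe sets (5.62), with values of 3.19 to 4.14, and Krt88 lay between 7.05 and 7.38.

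Epidermal and hair keratins behaved differently. In 13 of the 16 tumors each stayed within 1 log2 unit of its median, and in 3 tumors, 1 each of the control, anti-CD40 Ab and GEM groups, many of them were far above theirs. Of the 37 epidermal and hair keratins, 24 had a mean below the median of all probe sets. A keratin was counted as raised in a tumor where it exceeded its own median over the 16 arrays by at least 1 log2 unit. By this count 27 of 48 keratins were raised in control replicate 2, 7 in anti-CD40 Ab replicate 2, 17 in GEM replicate 4 and none in the other 13 tumors. Over all probe sets the raised share was 0.573%, 0.155% and 0.362% in these 3 tumors and 0.0311% to 1.47% in the others. In the 13 other tumors the furthest any of the 37 rose above its median was 0.77, for Krt33b in anti-CD40 Ab replicate 3. No ductal or other keratin was raised in any tumor. For Krt8 and Krt18 this count says nothing, because their medians of 13.725 and 13.405 leave no or hardly any room below the highest intensity, 14.47. The 3 tumors were found from these values, so the counts are a description.

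**Figure D2:**
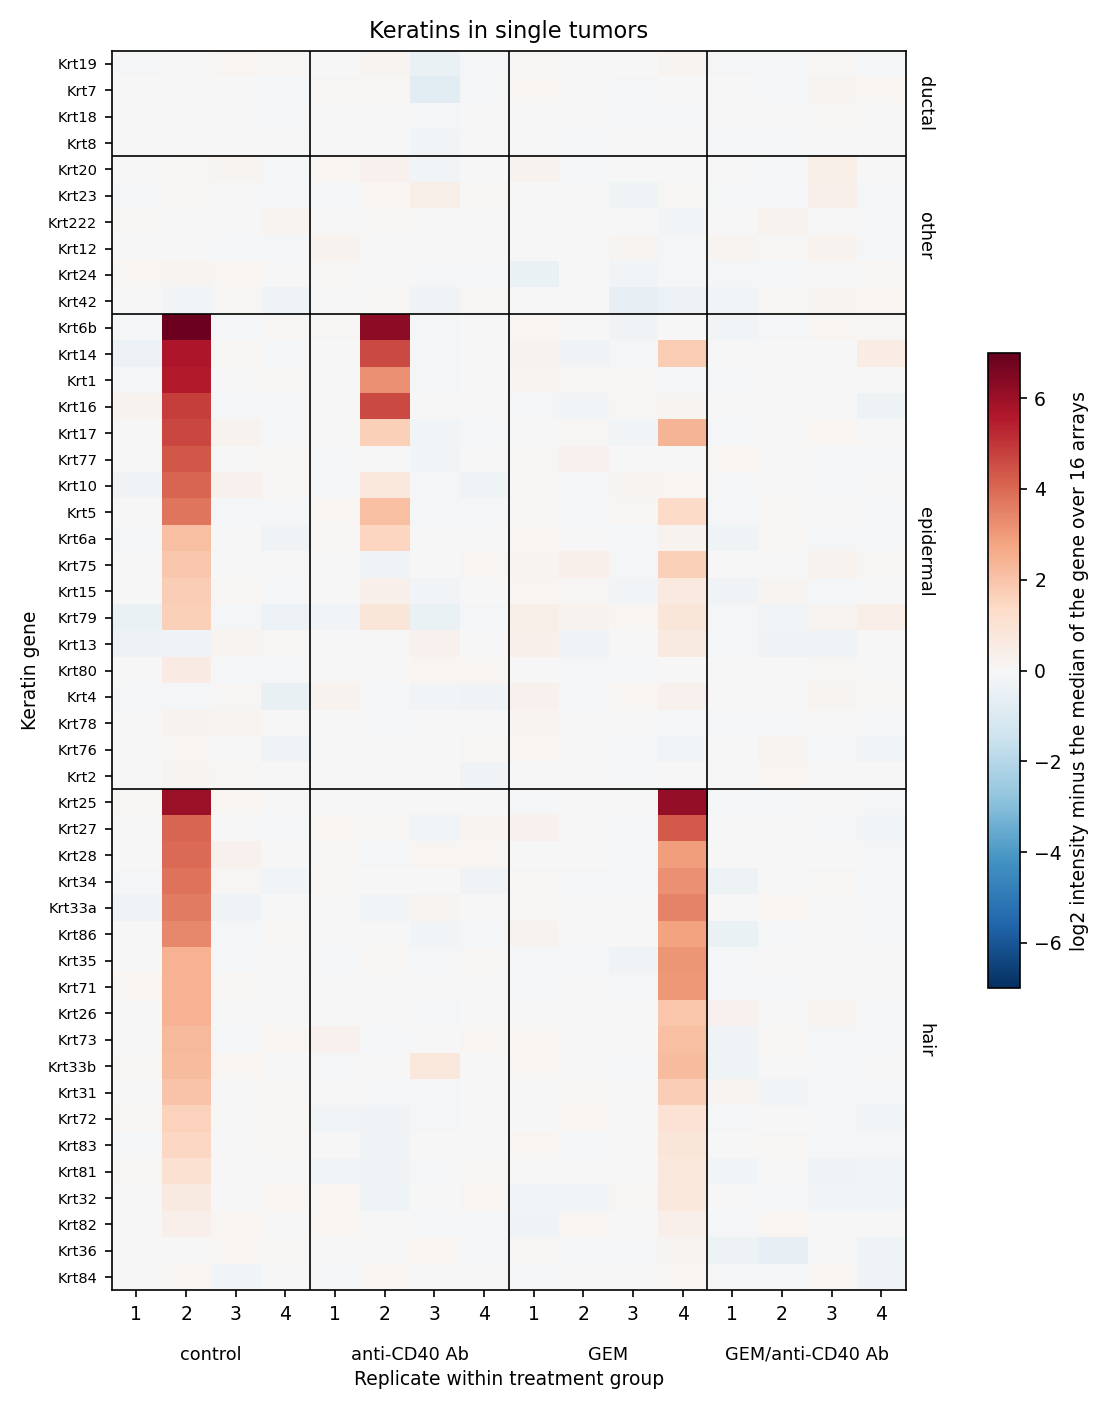
Log2 intensity of each keratin minus its median over the 16 arrays, with tumors in columns by group and replicate and keratins in rows by class (Krt88 is not drawn). Red is above and blue below the median. Control replicate 2 has 27 raised keratins, GEM replicate 4 has 17 and anti-CD40 Ab replicate 2 has 7, while GEM/anti-CD40 Ab tumors have none.

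The 3 tumors did not raise the same keratins. Control replicate 2 raised 12 of 18 epidermal and 15 of 19 hair keratins. Anti-CD40 Ab replicate 2 raised 7 of 18 epidermal keratins and 0 of 19 hair keratins. GEM replicate 4 raised 13 of 19 hair keratins and 4 of 18 epidermal keratins, which were Krt5, Krt14, Krt17 and Krt75, the last a keratin of the follicle's companion layer.

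Krt14, the type I keratin of basal keratinocytes, measured 4.65, 10.68, 5.12 and 4.90 in control replicates 1 to 4 and 5.07, 9.64, 4.92 and 5.02 in the anti-CD40 Ab group. GEM tumors had 5.31, 4.78, 4.90 and 6.83, and GEM/anti-CD40 Ab tumors 5.05, 5.03, 5.04 and 5.55. All 3 tumors were above the rest, control replicate 2 the most and GEM replicate 4 the least. Its partner Krt5 measured 8.25, 6.63 and 5.89 in control replicate 2, anti-CD40 Ab replicate 2 and GEM replicate 4, against 4.38 to 4.65 in the other tumors. Of the 3 probe sets of Krt14, the representative and a second one were both highest in the 3 tumors, and the last lay between 3.40 and 3.98 in all 16.

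Krt1 and Krt10, the pair of the upper epidermis, separated control replicate 2 and anti-CD40 Ab replicate 2 from GEM replicate 4. Krt1 measured 9.92 in control replicate 2, 7.58 in anti-CD40 Ab replicate 2 and 4.32 in GEM replicate 4, where the other 13 tumors lay between 4.26 and 4.55. Krt10 measured 11.00, 7.69 and 7.09 in the same order, against 6.65 to 7.25 in the others. GEM replicate 4 thus stood within the range of the other tumors for both, and anti-CD40 Ab replicate 2 stood above it by a smaller margin for Krt10 than for Krt1.

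Krt6b, Krt16 and Krt6a, which wounded and hyperproliferative epidermis uses, were high in control replicate 2 and anti-CD40 Ab replicate 2 alike. Krt6b measured 10.65 and 10.06 there, 3.79 in GEM replicate 4 and 3.57 to 3.94 elsewhere. Krt16 measured 8.62 and 8.41, against 3.98 in GEM replicate 4 and 3.47 to 4.06 elsewhere. The probe sets of Krt6a disagreed in size and partly in pattern. The brightest measured 8.58, 7.97 and 6.72 in control replicate 2, anti-CD40 Ab replicate 2 and GEM replicate 4 and 6.18 to 6.57 elsewhere, whereas a second one measured 10.33, 9.88 and 6.90 and 4.10 to 4.41 elsewhere.

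Krt17 and Krt15, which the outer root sheath of the follicle also makes, measured 7.83 and 6.23 in control replicate 2, 4.82 and 4.90 in anti-CD40 Ab replicate 2 and 5.56 and 5.22 in GEM replicate 4. The other tumors lay between 2.97 and 3.43 for Krt17 and between 4.30 and 4.69 for Krt15. For Krt17 and Krt15, unlike Krt1 and Krt6b, GEM replicate 4 stood above anti-CD40 Ab replicate 2. A second probe set of Krt17 lay between 3.00 and 3.50 in all 16 tumors. Krt17 shares 1 further probe set with Krt14, which was left out because it is annotated to both. Krt2, Krt4, Krt13, Krt76, Krt78 and Krt80, the other 6 of the epidermal class, were raised in none of the 16 tumors.

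The hair keratins were raised as a block in control replicate 2 and GEM replicate 4. Krt25, a type I keratin of the inner root sheath, measured 3.22, 9.19, 3.30 and 3.15 in control replicates 1 to 4 and 3.07, 3.20, 3.12 and 9.30 in GEM replicates 1 to 4. Anti-CD40 Ab tumors had 3.20, 3.10, 3.11 and 3.15, and GEM/anti-CD40 Ab tumors 3.02, 3.06, 3.17 and 3.07. Only control replicate 2 and GEM replicate 4 left the narrow band of the other 14 tumors.

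Its type II partner Krt71 measured 8.22 and 8.82 in control replicate 2 and GEM replicate 4 and 5.65 to 5.89 in the other 14. All 7 measured keratins of the inner root sheath (Krt25 to Krt28 and Krt71 to Krt73) were raised in both tumors, by up to 6.04 in control replicate 2 and by up to 6.15 in GEM replicate 4. Of the 12 keratins of the hair shaft, 8 were raised in control replicate 2 and 6 in GEM replicate 4, the same 6 being Krt31, Krt33a, Krt33b, Krt34, Krt35 and Krt86. Krt81 and Krt83 were raised in control replicate 2 and stood at 7.88 and 7.18 in GEM replicate 4, against 6.87 to 7.23 and 6.11 to 6.44 in the other 14 tumors. GEM replicate 3, whose title carries the same tumor number as GEM replicate 4, raised 0 of the 48 keratins.

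The raised hair keratins lie in runs in the order of the measured keratins along the chromosomes, though not every keratin within such a run was raised. Genes that were not measured were left out of this order, so others may lie between those named. In it, the 4 type I keratins of the inner root sheath, Krt25, Krt26, Krt27 and Krt28, follow each other on chromosome 11, next to Krt10. Krt33a, Krt33b, Krt34, Krt31, Krt32, Krt35 and Krt36 form a second run on the same chromosome. Of these, Krt32 and Krt36 were raised in neither control replicate 2 nor GEM replicate 4. Krt35 measured 5.78 and 6.45 in these tumors against 3.08 to 3.44 elsewhere. Krt32 measured 5.89 and 6.03 against 4.96 to 5.42, and Krt36 measured 5.83 and 6.08 against 5.30 to 6.01. Krt71, Krt72 and Krt73 follow each other in the order on chromosome 15, between Krt5 and Krt2. Krt81, Krt86 and Krt83, all raised in control replicate 2, also follow each other on chromosome 15. The raised and the flat keratins were thus not separated by position alone.

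Promoter sequences from RefSeq (build GRCm38.p6) show what the classes share before the start of transcription. The table holds promoters for 32 of the 48 keratins. The letters TATAAA, a form of the TATA box at which the transcription machinery assembles, were searched on both strands of the 250 bases before the annotated start. They occurred in 12 of 14 promoters of hair keratins, 2 of 11 of epidermal keratins and 0 of 3 of ductal keratins, against 12.4% of all 32851 promoters. The letters GGGCGG, a form of the GC box bound by Sp1, occurred in 0 of 14, 1 of 11 and 1 of 3 of these, against 32.7% of all promoters. The letters TGANTCA, bound by AP-1, occurred in 0 of 14, 2 of 11, both of which were promoters of Krt13, and 0 of 3, against 6.75%. A match is a description of the letters and not of a factor's binding, and it may stand anywhere in the 250 bases. Only these exact letters were searched. A promoter without TATAAA can therefore still hold another form of the TATA box, and the counts do not show that it lacks one. The last 100 bases before the start are shown for 2 keratins of each class, the ductal Krt7 and Krt18, the epidermal Krt5 and Krt10 and the inner root sheath partners Krt25 and Krt71, so that the classes can be compared letter by letter. Each is written 5′ to 3′ in the direction of the gene, with TATAAA and, on either strand, GGGCGG in capitals.
Krt7 (ductal, chr15:101412303-101412402, plus strand): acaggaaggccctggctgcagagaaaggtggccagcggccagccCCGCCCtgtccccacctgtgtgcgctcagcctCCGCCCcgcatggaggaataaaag
Krt18 (ductal, chr15:102028116-102028215, plus strand): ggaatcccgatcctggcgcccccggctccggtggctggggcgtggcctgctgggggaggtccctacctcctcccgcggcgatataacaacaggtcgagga
Krt10 (epidermal, chr11:99389365-99389464, minus strand): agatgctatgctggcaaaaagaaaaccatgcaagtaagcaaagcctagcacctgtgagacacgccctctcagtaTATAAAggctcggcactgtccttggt
Krt5 (epidermal, chr15:101712906-101713005, minus strand): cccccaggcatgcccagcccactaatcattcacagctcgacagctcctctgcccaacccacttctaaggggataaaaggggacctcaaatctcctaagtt
Krt25 (inner root sheath, chr11:99322952-99323051, minus strand): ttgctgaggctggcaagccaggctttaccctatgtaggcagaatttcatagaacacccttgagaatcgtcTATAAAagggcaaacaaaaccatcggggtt
Krt71 (inner root sheath, chr15:101743098-101743197, minus strand): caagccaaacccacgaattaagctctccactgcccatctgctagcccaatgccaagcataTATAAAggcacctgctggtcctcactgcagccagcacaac
TATAAA stands 30 bases before the start in Krt25, 40 in Krt71 and 26 in Krt10, and Krt7 shows 2 GC boxes on the reverse strand. Krt18 and Krt5 hold neither motif in the stretch shown.

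Genes of skin other than keratins were raised mostly, but not only, in the same tumors. Of 20 keratinocyte genes, 12 were raised in control replicate 2, 4 in anti-CD40 Ab replicate 2 (Krtdap, Flg, Dmkn and Lor) and 2 in GEM replicate 4 (Calml3 and Dmkn). Single genes of this list were also raised in tumors without a raised keratin, Dmkn in control replicate 3 (7.98) and GEM replicate 1 (7.97), both above GEM replicate 4 (7.86), and Ivl in GEM/anti-CD40 Ab replicate 3 (10.86). Ivl and Sprr1a, also of this list, were bright in all 16 tumors, at 7.95 to 10.86 and 11.01 to 12.68. The median of all probe sets was 5.62. The mean of the 20 genes was 7.21 in control replicate 2, 6.24 in anti-CD40 Ab replicate 2 and 5.64 in GEM replicate 4, against 5.19 to 5.74 in the other 13 tumors. Krtdap, a protein of differentiating keratinocytes, measured 8.19, 6.50 and 3.53 in these 3 tumors and 3.19 to 3.60 in the others.

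Of 13 hair follicle genes, 8 were raised in control replicate 2, 7 in GEM replicate 4 and 0 in anti-CD40 Ab replicate 2. Their mean was 6.27, 5.80 and 3.91, against 3.86 to 4.11 in the others. Tchh, trichohyalin of the inner root sheath, measured 8.32 in control replicate 2, 8.02 in GEM replicate 4 and 2.63 to 2.93 elsewhere, and the hair shaft protein gene Krtap8-1 measured 10.52, 9.58 and 3.85 to 4.51. No hair follicle gene was raised in any of the 13 other tumors.

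**Figure D3:**
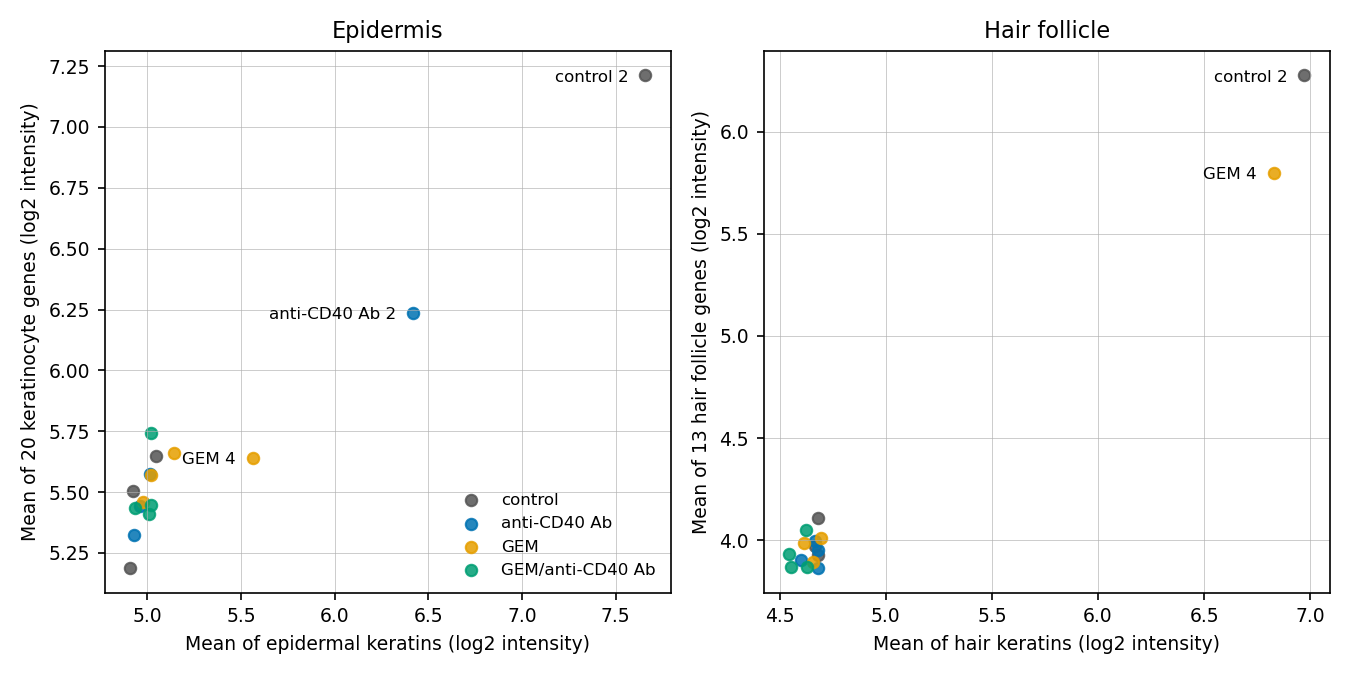
Mean log2 intensity of 20 keratinocyte genes against that of 18 epidermal keratins (left), and of 13 hair follicle genes against that of 19 hair keratins (right), each point a tumor coloured by group. Control replicate 2 is far from the cluster in both panels, anti-CD40 Ab replicate 2 in the left panel only, and GEM replicate 4 mainly in the right panel.

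Further lists moved in part. The melanocyte genes Tyrp1 and Dct, enzymes of pigment synthesis, were raised in GEM replicate 4 alone, at 5.60 and 6.24 against 3.43 to 3.82 and 4.33 to 5.19 in the other 15 tumors. The other 5 of 7 melanocyte genes did not reach 1 log2 unit above their medians. Of these, Pmel (6.72 against 5.44 to 6.02), Tyr, Mlana and Oca2 were also highest in GEM replicate 4, and Slc45a2 was not. The sebaceous genes Elovl3 and Far2 were raised in control replicate 2, 2 of 6. The desmosomal cadherin Dsc1 was raised in all 3 tumors, at 7.76, 5.86 and 6.32 in control replicate 2, anti-CD40 Ab replicate 2 and GEM replicate 4 against 2.89 to 3.44 elsewhere. The hemidesmosomal collagen Col17a1 was raised at 6.76 and 4.84 in control replicate 2 and anti-CD40 Ab replicate 2 and measured 3.73 in GEM replicate 4. Skeletal muscle genes did not follow the keratins. Of 14, they were raised in 6 in control replicate 2, 13 in GEM replicate 4 and 0 in anti-CD40 Ab replicate 2, but also in 8 in control replicate 3, 11 in control replicate 4 and 14 in GEM/anti-CD40 Ab replicate 4, none of which had a raised keratin. The part of skin in the keratin values of the 3 tumors was not tested beyond these lists.

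Against this background, no keratin passed the test in any comparison of the treatments. With anti-CD40 Ab against control, 0 of 48 keratins had an adjusted p under 0.05 (limma), as had 0.0% of all 45037 probe sets, and 0 of 48 had an unadjusted p under 0.05, against 6.08% of all probe sets. With GEM against control, 0 keratins passed, as did 0.0% of all probe sets, and 2 had an unadjusted p under 0.05, 4.17% of the keratins against 5.72% of all probe sets. With GEM/anti-CD40 Ab against control, 0 keratins passed, against 0.0178% of all probe sets, and 4 had an unadjusted p under 0.05, 8.33% against 9.58%. The shares of keratins were no higher than the background.

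The remaining tests gave the same count. For GEM/anti-CD40 Ab against GEM, 0 keratins passed (0.0% of all probe sets), with 1 at an unadjusted p under 0.05 (11.6% of all probe sets), and against anti-CD40 Ab 0 passed (0.0%), again with 1 (4.60%). The interaction, which asks whether the log2 changes of the 2 agents add up, gave 0 keratins (0.0%) and 0 at an unadjusted p under 0.05 (5.24%). A test for any difference between the 4 groups gave 0 (0.0355%) and 2 at an unadjusted p under 0.05 (9.48%). The smallest adjusted p of any keratin in these 7 tests was 0.379 (limma), for Krt36 in GEM/anti-CD40 Ab against GEM. With GEM replicates 3 and 4 averaged to 1 sample, 0 keratins passed in the 4 tests that include GEM tumors.

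Krt36, a keratin of hair and related hard structures, had the smallest p of the keratins in all 3 comparisons of GEM/anti-CD40 Ab. It measured 5.90, 5.83, 6.00 and 5.95 in control tumors and 5.87, 5.87, 6.01 and 5.72 in the anti-CD40 Ab group. GEM tumors had 5.93, 5.76, 5.80 and 6.08, and GEM/anti-CD40 Ab tumors 5.51, 5.30, 5.90 and 5.57. The combination group overlapped the others through replicate 3. Its log2 change was -0.35 against control (standard error 0.117, adjusted p = 0.461, limma), -0.32 against GEM (adjusted p = 0.379) and -0.30 against anti-CD40 Ab (adjusted p = 0.937). Krt36 was not raised in the 3 tumors described above, and without them the change against control was -0.38.

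The other keratins at an unadjusted p under 0.05 changed by less than 1 log2 unit. With GEM, Krt24 was at -0.29 (adjusted p = 0.817, limma) and Krt4, a keratin of the mouth and esophagus lining, at 0.33 (adjusted p = 0.852). Krt24 was 4.08 ± 0.08 in control and 3.79 ± 0.21 in GEM-treated tumors, and Krt4 was 5.68 ± 0.26 and 6.01 ± 0.17 (mean ± SD, n = 4). With GEM/anti-CD40 Ab, Krt78 was at -0.21, Krt32 at -0.32 and Krt12 at 0.18, with adjusted p of 0.485, 0.508 and 0.521 (limma). A second probe set of Krt12 went the other way. It measured 3.38, 3.65, 3.55 and 3.33 in control tumors and 3.18, 3.28, 3.11 and 3.19 in GEM/anti-CD40 Ab tumors. Both probe sets were dim, so the direction for Krt12 is uncertain.

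Group means of the epidermal and hair keratins followed the placement of the 3 tumors. For antibody, GEM and combination against control, the log2 change of Krt6b was -0.12, -1.73 and -1.71, and that of Krt25 was -1.57, -0.04 and -1.63 in the same order. Krt6b was near 0 where both groups held 1 tumor in which it was raised, and the same was true of Krt25. GEM replicate 4, which raised some epidermal keratins, did not raise Krt6b. The standard errors were wide, at 1.42 for Krt6b and 1.23 for Krt25 in the comparison of the combination with control. Control replicate 2 is shared by all comparisons against control, so their values for these keratins are not independent.

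Over the 18 epidermal keratins the median log2 change was -0.15, -0.30 and -0.50 for antibody, GEM and combination. Over the 19 hair keratins it was -0.58, -0.05 and -0.60, with 19 of 19 below 0 with GEM/anti-CD40 Ab. Over the 4 ductal keratins it was -0.08, 0.00 and 0.00, and over all probe sets -0.01, 0.00 and -0.02. The ductal median for the antibody was 0.03 without anti-CD40 Ab replicate 3, so its sign rested on that tumor. Without control replicate 2, anti-CD40 Ab replicate 2 and GEM replicate 4, a setting chosen after seeing the data, the epidermal medians were 0.02, 0.05 and 0.00, the hair medians 0.00, -0.03 and -0.09 and the ductal medians -0.13, -0.01 and 0.01. In that setting Krt6b changed by 0.03, -0.02 and 0.01 and Krt25 by -0.07, -0.09 and -0.14, and 0 keratins passed. Krt79, a keratin of the hair canal, then had the widest change in 2 of the comparisons, at 0.61 for GEM and 0.43 for the combination, and did not pass either.

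**Figure D4:**
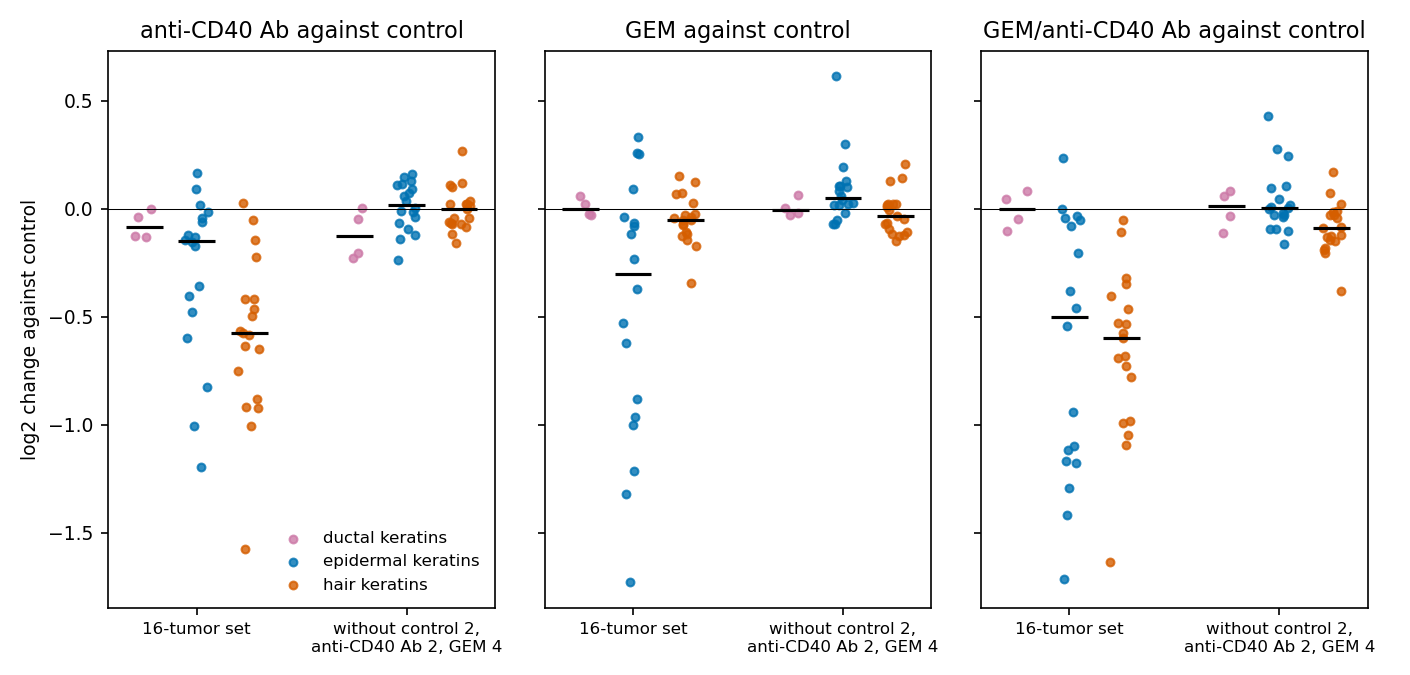
Log2 change of each ductal, epidermal and hair keratin against control for the 3 treatments, with all tumors (left cluster of each panel) and without control replicate 2, anti-CD40 Ab replicate 2 and GEM replicate 4 (right cluster). Points are genes and bars are class medians, which for hair keratins are -0.58, -0.05 and -0.60 with all tumors and 0.00, -0.03 and -0.09 without the 3 tumors.

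The lists of keratin partners and of ductal genes held no gene past the test in these comparisons either. Of 13 desmosome and plakin genes, 6 hemidesmosome genes and 19 ductal epithelium genes, 0 passed in each of the 7 tests. At an unadjusted p under 0.05 stood 5 of 19 ductal epithelium genes in GEM against control (Ehf, Ceacam1, Epcam, Esrp1 and Spint1), where 5.72% of all probe sets did. All 5 were higher on average with GEM, and of the 19 genes 14 had a log2 change above 0 and 4 below. In GEM/anti-CD40 Ab against control, the genes at an unadjusted p under 0.05 were Spint1, 1 of 19, and the plakin genes Evpl and Dsp, 2 of 13 (9.58% of all probe sets). Against GEM they were Ceacam1, 1 of 19, and the desmosome and plakin genes Plec, Pkp1 and Pkp2, 3 of 13 (11.6%). The interaction had Ceacam1 (5.24%), the test for any difference Ceacam1, Plec and Evpl (9.48%), and the other 2 comparisons none. The ductal epithelium list had a median log2 change of -0.04, 0.17 and -0.03 for antibody, GEM and combination.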

How the data were processed

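RNA from 16 tumors was measured on Affymetrix mouse whole-genome arrays. The authors ran RMA (background correction, normalization across arrays and 1 summary value per probe set) and deposited log2 intensities with 2 decimals. RMA keeps no flag for background or saturation, and the number of arrays, 4 per group, limits the precision. Sample titles give each array a tumor number of its own, except GEM replicates 3 and 4, which share one. If these come from 1 tumor, the p-values of the GEM group rest in part on technical spread.

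Leaving out 64 array controls from 45101 probe sets left 45037, all of which were tested. Probe sets annotated to 1 gene symbol numbered 34945, those with several symbols 932 and those not listed 9160. Each comparison used only the arrays of its own groups in limma 3.58.1 in R 4.3.3, two-sided, with Benjamini-Hochberg adjustment over all probe sets at 0.05. The interaction and the test for any difference used all 16 arrays. Standard errors and 95% confidence intervals are limma's. Tables were made with Python 3.11.15.

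The members, classes and lists were chosen with earlier results of these data known. The text names Krt7, Krt8, Krt18, Krt19 and 8 epidermal keratins by rule, keratins past a test, the 3 with the smallest p in each test, the 5 epidermal and 5 hair keratins of largest range and the 3 genes of largest range per list. Keratins named beside these were chosen after their values were seen. The fits were tested on simulated data with known changes and recovered 89%, 87% and 92% of probe sets changed by 1 log2 unit for anti-CD40 Ab, GEM and the combination against control (45037 probe sets). The changed probe sets, 100 by 1 and 100 by 2 log2 units, were drawn from all of these, with normally distributed noise. With that many changed, the Benjamini-Hochberg cut is less strict than in the data, where 0, 0 and 8 probe sets passed. The recovered shares may therefore be too high for a single changed keratin. They do not hold for keratins that were far higher in single tumors, whose standard errors were wide. Alternatives were all 16 arrays in one fit, dim probe sets left out, a trended robust prior, 75th percentile scaling, quantile normalization, all probe sets of a gene averaged, no _x_at probe sets, the replicate block, GEM replicates 3 and 4 averaged and single or paired arrays left out. The full genotype of the mouse from which the line came is not reported here.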

Additional observations from a re-analysis of the deposited data

Results flagged for a closer look

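Single tumors stood apart from the other 3 of their group for 44 of 132 combinations of a group with a keratin or a keratin class. A tumor was singled out when its gap to the nearest other tumor, divided by the range of the group, exceeded Dixon's 95% critical value, which chance does in about 1 of 20 groups. That rate is no yardstick here, because 10 of the keratins were taken for their large range and the keratins move together. Of these, 18 belonged to control replicate 2, 10 to anti-CD40 Ab replicate 2 and 11 to GEM replicate 4.

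Control replicate 2 was the highest of its group each time, with a ratio of gap to range of 0.951 for epidermal keratins, 0.992 for hair keratins, 0.977 for Krt1, 0.969 for Krt5, 0.927 for Krt6a, 0.870 for Krt10, 0.922 for Krt14, 0.891 for Krt15, 0.921 for Krt16, 0.922 for Krt17, 0.907 for Krt81, 0.909 for Krt73, 0.974 for Krt6b, 0.975 for Krt25, 0.965 for Krt27, 0.932 for Krt34, 0.912 for Krt28 and 0.909 for Krt33a. These are epidermal and hair keratins alike.

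Anti-CD40 Ab replicate 2 was the highest of its group with a ratio of 0.943 for epidermal keratins, 0.952 for Krt1, 0.880 for Krt5, 0.941 for Krt6a, 0.856 for Krt10, 0.968 for Krt14, 0.985 for Krt16, 0.885 for Krt17 and 0.983 for Krt6b. It was the lowest for the hair keratins as a class, with a ratio of 0.837, where the whole group spanned 0.08 log2 units. The raised keratins of this tumor are all epidermal.

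GEM replicate 4 was the highest of its group with a ratio of 0.964 for hair keratins, 0.888 for Krt5, 0.880 for Krt17, 0.948 for Krt81, 0.902 for Krt73, 0.979 for Krt25, 0.905 for Krt27, 0.931 for Krt34, 0.947 for Krt28 and 0.974 for Krt33a. It was the lowest for Krt222, with a ratio of 0.950 in a group that spanned 0.20 log2 units. Apart from Krt5 and Krt17, the keratins for which it was highest here are those of hair.

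Of the remaining 5, anti-CD40 Ab replicate 3 was the lowest of its group for Krt18, with a ratio of 0.947 over a range of 0.19. In the GEM/anti-CD40 Ab group, whose ranges were small, the ratio was 0.917 for the low mean of the epidermal keratins in replicate 1, 0.962 for high Krt14 and 0.838 for low Krt16 in replicate 4 and 0.867 for high Krt222 in replicate 2. The largest of these 4 ranges was 0.52 log2 units, for Krt14.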

How the results depend on the processing

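No keratin passed the test in any of the 150 fits, which covered 28 settings of the 7 tests, and the smallest adjusted p of a keratin in any of them was 0.0900 (limma). Over all fits at most 6 of the keratins had an unadjusted p under 0.05. The median log2 change of the epidermal and hair keratins against control depended on control replicate 2. Without it the median went from -0.42 to 0.053 with anti-CD40 Ab, from -0.08 to 0.24 with GEM and from -0.58 to -0.03 with the combination. The ductal median with anti-CD40 Ab went from -0.08 to 0.032 without anti-CD40 Ab replicate 3. These shifts are within the SD of class means between tumors of a group (0.73 and 0.12), which the same tumors raise.

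The numbers of replicates gave no pairing, since the correlations of deviations of same-numbered samples were between -0.266 and 0.273. With the replicate number as a block, 0 keratins passed in each test and 6 had an unadjusted p under 0.05 in GEM/anti-CD40 Ab against control, against 4 without it. Over all probe sets the calls of that comparison went from 8 to 0 with the block. Every class median was the same with the block, which the design fixes, since each replicate number occurs once in each group.

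The correlations of the ductal keratins depended on single arrays. When single arrays were left out, r ranged from 0.469 to 0.827 for Krt7 and Krt8, 0.513 to 0.808 for Krt7 and Krt18, 0.277 to 0.801 for Krt7 and Krt19, 0.412 to 0.762 for Krt8 and Krt18, 0.500 to 0.841 for Krt8 and Krt19 and -0.211 to 0.551 for Krt18 and Krt19, with the lowest of each without anti-CD40 Ab replicate 3 and the 0.551 without GEM replicate 4 (adjusted p = 0.0423, permutation test).

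Signs turned, for small changes and for the large ones of Krt6b, Krt14 and Krt25. Single arrays turned Krt7 and Krt8 (anti-CD40 Ab replicate 3), Krt19 (control replicate 1 or GEM replicate 4), Krt25 with GEM (control replicate 2 or GEM replicate 1, 2 or 3), Krt6b and Krt14 with the combination (control replicate 2) and with anti-CD40 Ab (control replicate 2 or antibody replicate 1, 3 or 4). Leaving out single arrays, the change with anti-CD40 Ab ran from -0.21 to 0.073 for Krt7, -0.066 to 0.018 for Krt8, -1.33 to 1.27 for Krt14 and -1.69 to 1.60 for Krt6b. With GEM it ran from -0.024 to 0.059 for Krt19 and -1.58 to 1.45 for Krt25, and with GEM/anti-CD40 Ab from -1.73 to 0.28 for Krt14 and -2.31 to 0.0058 for Krt6b. Scaling to the 75th percentile gave -0.005 for Krt19 with GEM and -0.0075 for Krt18 with GEM/anti-CD40 Ab. Without control replicate 2 and anti-CD40 Ab replicate 2, Krt25 was at 1.45 with GEM, Krt14 at 0.11 and Krt6b at 0.033 with anti-CD40 Ab, and Krt14 at 0.28 and Krt6b at 0.0058 with GEM/anti-CD40 Ab. Without all 3 tumors these last 4 values were the same, and with GEM Krt18 was at 0.0033 and Krt19 at -0.03. Beyond the arrays left out, the cause was not tested.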
